A study of Mus musculus with 4 samples.

Results

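Matrix glycoprotein and elastic fibre genes were compared between EV-50 and shGR-19, stable clonal lines derived from EPH-4, an immortalized, non-malignant line of mouse mammary epithelium. The set holds 10 genes, Fn1, Fbn1, Postn, Sparc, Tnc, Thbs1, Thbs2, Lox, Loxl1 and Eln, of 28146 gene names on the array. Every non-control probe that the scanner files name after one of them was used, which gave 18 of 41174 probes. EV-50 received an empty vector and has normal status for the glucocorticoid receptor (GR), while shGR-19 received a vector that expresses an shRNA against GR and is labelled as depleted. Both lines also took up a plasmid for selection and were grown in serum-free medium with 2 µg/ml puromycin, and no glucocorticoid was added to either. RNA of each line (300 ng per reaction) was labelled with Cy3 on 2 arrays. The study asked which genes depend on GR in the absence of its hormone. Each line is 1 clone, and nothing says that its duplicates came from separate cultures, so their spread may be technical. The 10 genes were selected on their place in the matrix with the differences between the lines already known, so those differences are described here and not tested.

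The extracellular matrix is the meshwork of secreted proteins to which cells attach. Fibronectin (Fn1) forms adhesive fibrils, fibrillin-1 (Fbn1) forms the microfibrils on which elastin (Eln) is deposited to make elastic fibres, and lysyl oxidases (Lox, Loxl1) crosslink elastin and collagen. Periostin (Postn), SPARC (Sparc), tenascin-C (Tnc) and the thrombospondins (Thbs1, Thbs2) are matricellular proteins, which modulate how cells respond to the matrix more than they build it. In the mammary gland most of this matrix comes from stromal and myoepithelial cells, and epithelial cells in culture make part of it themselves.

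Each sample had a raw scanner reading and a column in a table that the authors made in GeneSpring. Raw readings are given here as log2 signal above or below the 75th percentile of their array. GeneSpring values are log2 values centred probe by probe, so that they show differences and no levels. The arrays are called by their labels EV1 and EV2 (EV-50, replicates 1 and 2) and SH1 and SH2 (shGR-19, replicates 1 and 2). The brightest probe of the targeted gene, Nr3c1, which encodes GR, had a GeneSpring difference (shGR-19 minus EV-50) of -1.94 with a standard error of 0.048. Its raw readings were 1.81 (EV1), 1.92 (EV2), 1.46 (SH1) and -0.034 (SH2). The array labelled SH1 thus stood nearer to the EV-50 arrays than to its own duplicate, and every raw direction rests on that label. Whether the replicate 1 scanner files come from the arrays behind the GeneSpring columns is not known, and this limits every raw mean, every raw value with an array left out and every comparison of the sources. Over the 21179 probes well above background throughout, the SD of the raw log2 difference was 0.225 between EV1 and SH1, 0.513 between EV2 and SH2, 0.616 between EV1 and EV2, and 0.705 between SH1 and SH2. Duplicate GeneSpring columns differed with SDs of 0.205 (EV-50) and 0.210 (shGR-19). Of 11 epithelial marker genes, 10 were well above background on every array, and the signal of all 11 summed to between 718 and 819 times the 75th percentile. This sum follows its brightest genes, such as Krt18 and Krt8 (raw readings of 8.52 and 7.81 on EV1), and hides changes in dimmer ones.

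By the GeneSpring values, Fbn1, Postn and Tnc (brightest probe) were lower in shGR-19 by 4.43-fold, 3.30-fold and 3.0-fold, and Sparc was 2.44-fold higher. Fn1 and Thbs1 were lower by 1.44-fold to 1.60-fold over all 6 of their probes. Loxl1 was 1.14-fold higher and Eln 1.02-fold lower, which for Eln was less than the spread of its columns. Thbs2 and Lox were not well above background on any array. In the raw readings, differences of over 1 on the log2 scale stood between EV2 and SH2 for Fbn1, Postn, Sparc and Tnc, whereas EV1 and SH1 differed by at most 0.55 on the log2 scale for any kept probe of the set.

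A probe was kept if it stood well above background on both arrays of a line, in one line or in both. Of the 18 probes 15 were kept, and they read 8 of the 10 genes. In the GeneSpring table, 12 were lower and 3 higher in shGR-19. A call required over 2-fold and, in limma, an adjusted p under 0.01. By it 2 of the 15 were higher (both Sparc probes), where 1.87% of all 24443 kept probes were. Lower were 4 of the 15 (Fbn1, Postn and 2 of the Tnc probes), where 2.39% of all kept probes were. As the set was put together knowing this contrast, nothing is read from these counts. The columns of the lines did not overlap for 14 of the 15, and for 71.9% of all kept probes. Among raw readings limma called 0 of the 24443 kept probes (0%), with 209 at an unadjusted p below 0.05, and an adjusted plain equal-variance test called 0 too. The raw readings of the lines overlapped for all 15 probes of the set, whereas 17.9% of all kept probes had lines that did not overlap.

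**Figure D1:**
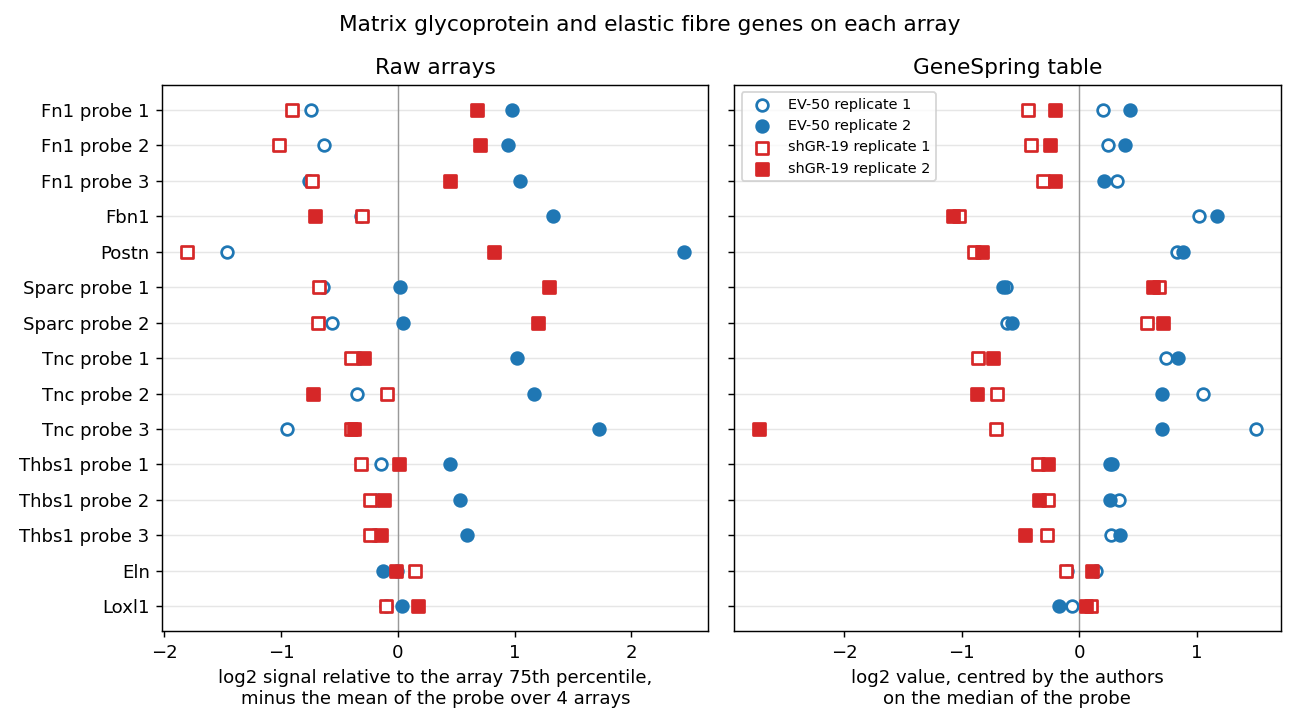
Each row is a kept probe, numbered from the brightest within a gene, and each point is 1 array (circles EV-50, squares shGR-19, open replicate 1, filled replicate 2). The left panel plots log2 raw signal minus the mean of the probe and the right panel the log2 GeneSpring value. At right the Postn points lie at 0.83 and 0.89 (EV-50) and at -0.89 and -0.83 (shGR-19), while at left the open and filled Postn points are further apart than circles and squares.

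The positions of the probes are those of mm9, the build in the array annotation, and exons or UTRs of mm9 were not used here. Of the 18 probes, 6 have a genomic range longer than their 60 bases. Such a probe spans a splice junction and reads spliced RNA. The sequences of 4 of these are shown, 1 each for Sparc, Tnc, Fn1 and Thbs1, because their readings come from spliced RNA of these genes. They lie at chr11:55209449-55212106 (minus strand), chr4:63674248-63675011 (minus strand), chr1:71637422-71639659 (minus strand) and chr2:117946712-117946892 (plus strand), and are written 5′ to 3′ as in the files.
Sparc probe 1: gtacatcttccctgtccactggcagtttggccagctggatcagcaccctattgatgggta
Tnc probe 2: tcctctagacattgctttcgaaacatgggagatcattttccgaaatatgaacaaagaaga
Fn1 probe 1: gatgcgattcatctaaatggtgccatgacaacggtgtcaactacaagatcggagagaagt
Thbs1 probe 3: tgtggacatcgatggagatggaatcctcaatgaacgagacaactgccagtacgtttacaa

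Fn1 encodes fibronectin, which cells bind through integrins and assemble into fibrils. Its brightest probe, spotted 10 times on each array, had raw readings of 3.18 (EV1), 4.90 (EV2), 3.01 (SH1) and 4.60 (SH2). Both replicate 2 arrays were high and both replicate 1 arrays low, and the lines overlapped. The GeneSpring values were 0.20 and 0.44 for EV-50 and -0.43 and -0.20 for shGR-19, which do not overlap and differ by -0.64 (standard error 0.13). Its other probes, at chr1:71644127-71644186 and chr1:71673888-71674646, differed by -0.65 and -0.52. Mean raw differences were between -0.31 and -0.23 over the 3 probes, less than their standard errors of 0.76 to 0.82. With EV2 left out they were 0.63, 0.47 and 0.62, and with SH1 left out 0.56, 0.55 and 0.31, so that the sign of the raw difference turned.

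Fbn1 encodes fibrillin-1, the main protein of microfibrils. Its kept probe, at chr2:125126727-125126786, had GeneSpring values of 1.02 and 1.18 for EV-50 and of -1.02 and -1.08 for shGR-19. These differ by -2.15 (standard error 0.076), and the lines do not overlap. The signal was dim, with raw readings of -4.81 (EV1), -3.17 (EV2), -4.81 (SH1) and -5.21 (SH2). EV2 stood above the other arrays, and EV1 and SH1 were alike. On EV1 the probe was not well above background, and it was kept through shGR-19, the line in which it was lower. The raw mean difference of -1.02 became -0.20 without EV2 and -0.32 with normexp background correction. A further Fbn1 probe, at chr2:125127254-125127313, was not well above background on any array and gives no fold.

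Among the matricellular genes, Postn encodes periostin, which binds integrins and promotes collagen crosslinking. Its probe is at chr3:54194483-54194542. The GeneSpring values were 0.83 and 0.89 for EV-50 and -0.89 and -0.83 for shGR-19, a difference of -1.72 (standard error 0.055) with no overlap. Its raw readings were 1.13 (EV1), 5.05 (EV2), 0.79 (SH1) and 3.42 (SH2). Replicate 2 was high in both lines, by 3.91 over replicate 1 in EV-50 and by 2.63 in shGR-19, which is more than the lines differed. In all, 18 kept probes rose at least as far as Postn from EV1 to EV2, itself included, and 92 did from SH1 to SH2. SH1 differed from EV1 by -0.34 and SH2 from EV2 by -1.63. The raw mean difference of -0.99 (standard error 1.61) turned to 0.97 without EV2 and to 0.33 without SH1.

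Sparc encodes a collagen-binding glycoprotein also known as osteonectin, and it is the gene of the set that was over 2-fold higher in shGR-19, by both of its probes. Probe 1, whose sequence is given above, had GeneSpring values of -0.62 and -0.65 for EV-50 and of 0.68 and 0.62 for shGR-19, a difference of 1.29 (standard error 0.050). Probe 2, at chr11:55208013-55208072, gave 1.24 (standard error 0.070). For neither probe did the lines overlap. The raw readings of probe 1 were 3.91 (EV1), 4.57 (EV2), 3.87 (SH1) and 5.85 (SH2). SH2 stood highest, and SH1 lay just under EV1, at a difference of -0.041. The raw mean difference was 0.62, and it was -0.37 without SH2 and 1.60 without SH1.

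Tnc encodes tenascin-C, a large glycoprotein that modulates cell adhesion. All 3 of its probes were lower in shGR-19 by the GeneSpring values. Probe 1, the brightest, at chr4:63620819-63620864, was at 0.73 and 0.84 for EV-50 and at -0.86 and -0.73 for shGR-19, a difference of -1.59 (standard error 0.077). Probe 2, whose sequence is given above, differed by -1.67 (standard error 0.15), and its raw readings were -4.31 (EV1), -2.80 (EV2), -4.05 (SH1) and -4.69 (SH2). Probe 3, at chr4:63645878-63645937, differed by -2.82, but its shGR-19 columns lay far apart at -0.71 and -2.72 (standard error 0.82), and without the second of these the difference was -1.81. Probe 1 had raw readings of -0.85 (EV1), 0.50 (EV2), -0.92 (SH1) and -0.81 (SH2). EV2 was the highest array for all 3 probes. Raw mean differences ran from -0.82 to -0.69, and without EV2 they were -0.016, -0.064 and 0.57. Probe 3 was not well above background on EV1.

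Thbs1 encodes thrombospondin-1, which binds CD36 and CD47 and activates latent TGF-beta. Its 3 probes differed by -0.58, -0.60 and -0.68 in the GeneSpring table, with standard errors between 0.056 and 0.088. Probe 1, at chr2:117951775-117951834, was at 0.26 and 0.28 for EV-50 and at -0.35 and -0.26 for shGR-19, without overlap. Its raw readings were 2.31 (EV1), 2.90 (EV2), 2.14 (SH1) and 2.47 (SH2). EV2 was the highest, and the other 3 arrays ran from 2.14 to 2.47. Probe 2 lies at chr2:117948330-117948389, and probe 3, whose sequence is given above, had raw readings of -0.43 (EV1), 0.36 (EV2), -0.46 (SH1) and -0.37 (SH2). Raw mean differences ran from -0.38 to -0.30, and without EV2 from -0.0055 to 0.017. Thbs2, a related thrombospondin, was read by 1 probe at chr17:14804526-14805789 that was not well above background on any array.

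Of the genes of elastic fibres, Eln encodes elastin, the protein that lets the fibre recoil. Its probe, at chr5:135179129-135179188, had raw readings of -3.25 (EV1), -3.38 (EV2), -3.10 (SH1) and -3.27 (SH2). Its lines overlapped in both sources, and the GeneSpring difference was -0.023 (standard error 0.13). Loxl1 encodes a lysyl oxidase that crosslinks elastin. Its probe, at chr9:58138570-58138629, had raw readings of -0.76 (EV1), -0.63 (EV2), -0.77 (SH1) and -0.49 (SH2), which overlap, and a GeneSpring difference of 0.19 (standard error 0.063). The single probe of Lox, which encodes lysyl oxidase itself, was not well above background on any array.

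**Figure D2:**
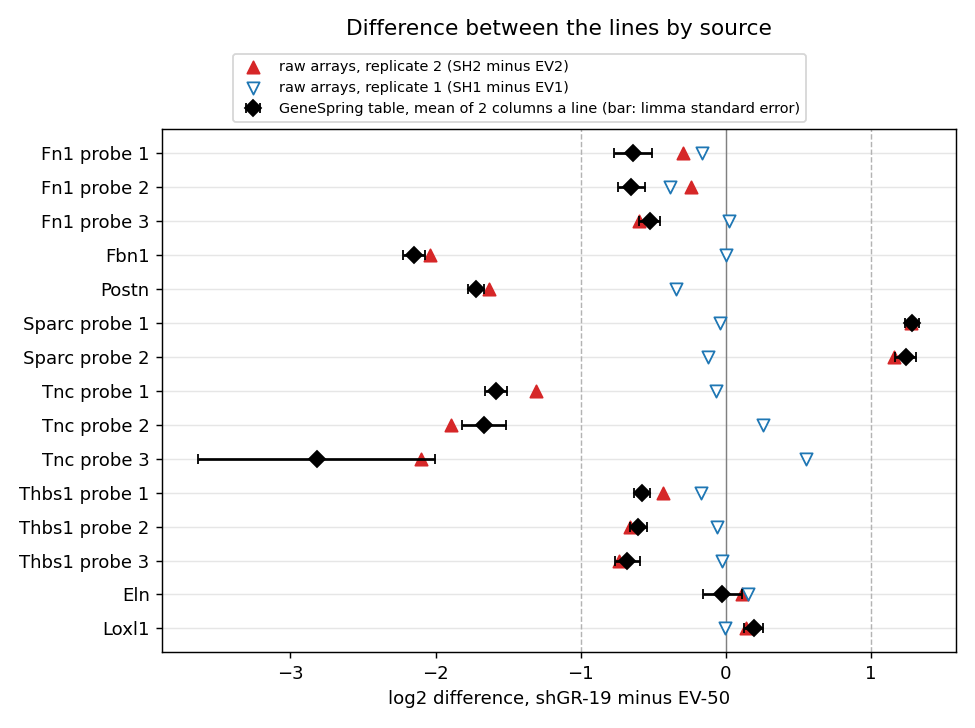
Log2 difference, shGR-19 minus EV-50, of each kept probe (rows): GeneSpring values (diamonds, bars are limma standard errors), raw SH1 minus EV1 (open triangles) and raw SH2 minus EV2 (filled triangles). Dashed lines mark 2-fold. For Fbn1, Postn, Sparc and Tnc the filled triangles lie nearer to the diamonds than the open ones do, as for Postn at -1.63, -1.72 and -0.34.

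Probe by probe, SH2 minus EV2 had the sign of the GeneSpring difference for 14 of the 15 kept probes, with Eln as the exception, and SH1 minus EV1 for 7 of the 15. The labels give both sources as the same samples, so a shared sign is no independent evidence. All 3 Fn1 probes and the Postn probe read over 2-fold higher on EV2 than on EV1 and on SH2 than on SH1. Of all kept probes, 4.72% were over 2-fold apart the same way in both lines. For the 4 genes with several kept probes, Fn1, Sparc, Tnc and Thbs1, all probes of a gene had 1 sign by the GeneSpring values.

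Mesenchymal cells make much of this matrix in tissue, and their markers were read beside it. Of 13 such genes 6 were well above background on every array, Col1a2, Pdgfrb, S100a4, Vim, Zeb1 and Zeb2, while Cdh2 and Dcn were on none. The summed signal of all 13, in multiples of the 75th percentile, was 148 (EV1), 33.5 (EV2), 162 (SH1) and 68.7 (SH2), and most of it on EV1, EV2 and SH1 was S100a4. Without S100a4 the other 12 summed to 2.34 (EV1), 6.79 (EV2), 2.25 (SH1) and 50.1 (SH2). This sum was higher on both replicate 2 arrays and highest on SH2. It follows its brightest genes, which on SH2 were Col1a2, Pdgfrb and Col1a1, with raw log2 readings of 4.9, 3.9 and 1.9. Not all of the 12 shared its pattern. Zeb1 was lower on both replicate 2 arrays, at -2.62 (EV1), -4.41 (EV2), -2.51 (SH1) and -4.09 (SH2). By the GeneSpring values the 6 genes fell into separate ranges. Col1a2 rose by 3.27, Pdgfrb by 2.03 and Vim by 1.82 in shGR-19 (limma, adjusted p = 0.0012, 0.00232 and 0.00947), while Zeb1, Zeb2 and S100a4 differed by 0.13, 0.018 and -0.19. Of the 10 epithelial markers well above background on every array, Krt14, a keratin of basal cells, fell by 1.13 (limma, adjusted p = 0.00332). The other 9 differed by -0.60 to 0.23. Krt19, also on the epithelial list, was well above background on 2 arrays only and was not fitted. Its GeneSpring difference was -2.76, with raw readings of -5.1 (EV1), -2.89 (EV2), -5.14 (SH1) and -6.59 (SH2). Of 6 myoepithelial markers 3 were well above background on every array, of 5 endothelial markers 0 were, and Ptprc, which marks leukocytes, was on none. The part of these markers in the matrix differences was not tested. In RNA of whole cultures, fewer cells that express a gene and less of its RNA per cell cannot be told apart.

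The genes with the profiles most like Postn, Tnc and Sparc were sought by Euclidean distance over 8 values (4 raw and 4 GeneSpring, each centred) among 19525 named probes of other genes. These 3 had the largest GeneSpring differences of the set among probes well above background on every array. Sparc lay closest to Inhbb, which encodes an inhibin and activin subunit (distance 0.113), and to Gm11992 (0.144), against a median distance of 2.14. Postn lay closest to Irgm2 (0.398) and Usp18 (0.402), both interferon-induced genes, against a median of 3.98. Tnc, by probe 2, lay closest to Zfp13 (0.343) and Cbr2 (0.382), against a median of 2.29. The smallest of so many distances lies below the median by selection, so the medians give the scale only. Raw values enter the distance together with their differences between replicate numbers. No shared regulation is read from these neighbours.

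Further matrix genes came from 4 lists of related roles, which were written by role but with earlier results for these lines known, so the share of calls among them is a description. Of 77 such genes on the array, 53 had a kept probe, and the brightest of each was used. By the GeneSpring values limma called 4 of the 53 higher (7.55%) and 8 lower (15.1%), where 2.16% and 2.70% of all 16760 genes were called. At any fold, limma gave an adjusted p below 0.01 to 13 higher (24.5%) and 12 lower (22.6%). Over all genes these shares were 6.1% and 6.51%. The median difference was 0.087 over the 53 and 0.018 over all genes. When a column was omitted, whichever it was, limma called 0 of all kept probes, so that this says nothing of single genes, and 37 to 40 of the 53 had an unadjusted p below 0.05. The differences of the 12 called genes moved by at most 0.105, and all but Ltbp1 (0.98 at its lowest) remained over 2-fold with each column left out. Among raw readings limma called 0, and 2 had an unadjusted p below 0.05.

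Of 11 kept genes of elastic fibres and microfibrils, 1 was called higher and 2 were called lower, and the median was -0.0039. Ltbp1, whose product tethers latent TGF-beta to microfibrils, rose by 1.04 (limma, adjusted p = 0.00552). Ltbp2, a relative that binds fibrillin, fell by 1.15 (limma, adjusted p = 0.00891), and Fbln2, which encodes the elastin-binding glycoprotein fibulin-2, fell by 1.04 (limma, adjusted p = 0.00342). The raw readings of Ltbp2 were 1.16 (EV1), 3.64 (EV2), 1.17 (SH1) and 2.52 (SH2), high on both replicate 2 arrays as for Fn1 and Postn.

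Of 14 kept matricellular and adhesive glycoproteins, 1 was called higher and 4 were called lower, with a median of -0.66. Those called lower were Ctgf, a matricellular regulator of fibrosis (-1.37, limma, adjusted p = 0.00336), Matn2, an adaptor of matrix filaments (-1.33, adjusted p = 0.00332), Ecm1 (-1.31, adjusted p = 0.00277) and Wisp2, a relative of Ctgf (-1.07, adjusted p = 0.00428). Thbs3, a relative of Thbs1, rose by 1.20 (limma, adjusted p = 0.00556). The raw readings of Ctgf were 3.56 (EV1), 5.43 (EV2), 3.66 (SH1) and 4.03 (SH2), with EV2 the highest as for Fbn1 and Tnc. Spp1, which encodes osteopontin, differed by -0.94, under the 2-fold limit (limma, adjusted p = 0.00365). Smoc1 differed by -1.32, over 2-fold, and was not called because it missed the p limit (limma, adjusted p = 0.0103).

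Of 14 kept genes for enzymes and chaperones that process or crosslink the matrix, 1 was called higher and 1 lower, and the median was 0.24. Serpinh1, which encodes the collagen chaperone HSP47, rose by 1.40 (limma, adjusted p = 0.00353). Plod2, which encodes a lysyl hydroxylase that prepares collagen for crosslinking, fell by 1.15 (limma, adjusted p = 0.00395). Loxl4, a relative of Lox and Loxl1, differed by 0.79, under the 2-fold limit (limma, adjusted p = 0.00492).

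Of 14 kept genes for receptors of these proteins, 1 was called higher and 1 lower, and the median was 0.16. Itgb6, an integrin subunit that binds fibronectin, rose by 1.39 (limma, adjusted p = 0.00322), and Stab1, a scavenger receptor that takes up SPARC, fell by 1.68 (limma, adjusted p = 0.00255). Cd47, a receptor of thrombospondin-1, differed by -0.92, under the 2-fold limit (limma, adjusted p = 0.00384). Itga5, a subunit of the main fibronectin receptor, differed by 0.55 and did not pass (limma, adjusted p = 0.0229).

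**Figure D3:**
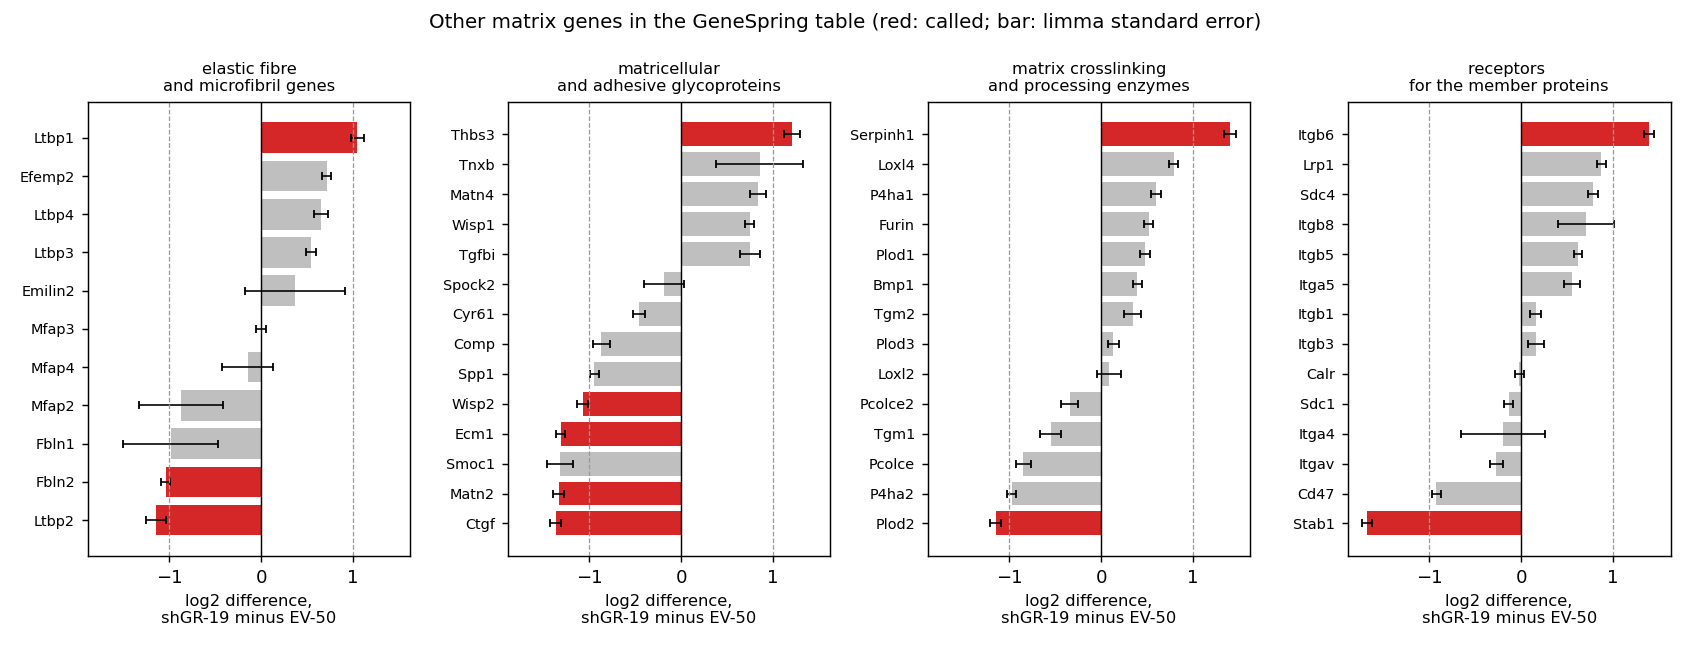
Log2 GeneSpring difference, shGR-19 minus EV-50, for the 53 kept genes of the 4 lists, 1 bar per gene (brightest kept probe) with its limma standard error. Red bars were called, 4 of them upward and 8 downward, with Serpinh1 at 1.40 and Ctgf at -1.37 among them.

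Promoters were read from RefSeq (GRCm38.p6), which gave windows from 250 bases before to 50 after the transcription start for 5 of the 10 genes. Those of the 4 genes over 2-fold apart in the GeneSpring table are shown, so that Sparc, which was higher, can be read beside Fbn1, Postn and Tnc, which were lower. They lie at chr11:55420031-55420330 (Sparc, minus strand), chr2:125506389-125506688 (Fbn1, minus strand), chr3:54360857-54361156 (Postn, plus strand) and chr4:64046887-64047186 (Tnc, minus strand). A second window each of Postn and Tnc, for another start site, is not shown. Capitals mark the motifs found on either strand, which are described after the sequences.
Sparc: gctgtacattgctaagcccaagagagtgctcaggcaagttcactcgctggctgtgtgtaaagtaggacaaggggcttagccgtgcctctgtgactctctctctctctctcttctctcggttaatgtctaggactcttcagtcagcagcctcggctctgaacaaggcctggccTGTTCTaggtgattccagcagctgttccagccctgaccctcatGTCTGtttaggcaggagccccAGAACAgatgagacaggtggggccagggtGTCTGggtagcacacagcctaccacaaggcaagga
Fbn1: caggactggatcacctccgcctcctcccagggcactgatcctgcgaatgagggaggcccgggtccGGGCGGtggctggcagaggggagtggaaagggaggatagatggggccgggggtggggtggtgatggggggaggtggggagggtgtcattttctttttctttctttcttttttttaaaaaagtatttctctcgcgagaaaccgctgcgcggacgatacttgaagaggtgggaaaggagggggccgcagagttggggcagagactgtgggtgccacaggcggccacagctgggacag
Postn: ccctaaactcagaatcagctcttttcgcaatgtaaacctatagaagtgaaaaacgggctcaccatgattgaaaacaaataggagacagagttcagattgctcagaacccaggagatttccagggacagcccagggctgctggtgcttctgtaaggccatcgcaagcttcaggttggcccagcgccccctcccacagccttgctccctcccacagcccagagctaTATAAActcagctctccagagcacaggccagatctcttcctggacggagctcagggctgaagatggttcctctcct
Tnc: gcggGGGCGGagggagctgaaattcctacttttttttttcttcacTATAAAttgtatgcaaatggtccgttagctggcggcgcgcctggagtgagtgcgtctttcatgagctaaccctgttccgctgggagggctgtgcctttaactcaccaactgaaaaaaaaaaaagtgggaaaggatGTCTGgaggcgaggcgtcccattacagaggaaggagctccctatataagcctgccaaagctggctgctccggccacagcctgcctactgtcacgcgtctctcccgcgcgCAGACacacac

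The half-site of the glucocorticoid response element, AGAACA, occurred 2 times in the Sparc window, and the windows of Fbn1, Postn and Tnc did not hold it. It was held by 19% of all 32851 windows of this length. The motif to which SMAD proteins bind, CAGAC, occurred 2 times in Sparc and 2 times in Tnc, and 49.6% of all windows held it. The core promoter motif TATAAA occurred 1 time in Postn and 1 time in Tnc, and 13.6% of all windows held it. The Postn match lay shortly before the start, whereas the Tnc match lay near the upstream end of its window. The Tnc match is therefore not read as a core promoter element. The binding motif of the factor SP1, GGGCGG, occurred 1 time in Fbn1 and 1 time in Tnc, and 35.7% of all windows held it. The AP-1 motif TGANTCA was in none of these 4 windows and in 7.8% of all. Motif content differed with the start site: the second Postn window held CAGAC 1 time and no TATAAA, and the second Tnc window held CAGAC 1 time, with TATAAA and GGGCGG as in the first. None of the matches in these windows overlap another. They are matches of letters and do not show binding.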

How the data were processed

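Gene expression was read on 4 Agilent Whole Mouse Genome arrays, which shared 1 slide and 1 scan, so no batch could be fitted. For each spot the authors deposited an intensity from Agilent Feature Extraction 10.5.1.1 (default one-colour settings), with background removed and without scaling between arrays. The authors also deposited log2 values from GeneSpring, centred per probe on the median. Outlier spots (74 to 139 an array) and control spots were dropped, 0 spots were saturated, and spots of a probe were averaged. Raw readings are log2 of this signal less that of the 75th percentile, which was 516 to 584. Of 43379 spots, 23290 to 27358 an array stood well above background. Precision is limited by having 2 arrays a line.

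Kept probes (24443) were fitted in limma 3.58.1 (R 4.3.3) with line as the sole term, separately for raw and GeneSpring values, with Benjamini-Hochberg adjustment over all of them. The fold and p limits are those of the study's methods, which mention no adjustment. With 2 arrays against 2, exact permutation reaches no p under 0.333 and was not run. The 10 genes and all lists were chosen with earlier results of these data known, and lists were written from general knowledge. Genes named are the 10 members, Nr3c1, list genes that were called, marker genes and the 2 nearest profiles of 3 members. Spp1, Smoc1, Loxl4, Cd47 and Itga5 were named after their values were seen. Alternatives were normexp (offset 50), quantile normalization, a percentile over detected probes, all probes or those detected on every array, trend and robust prior (statmod 1.5.0), replicate number as block, each array omitted (a lone array taken to vary like the other line), other p limits, probes averaged by gene, and a plain equal-variance test. The fits were tested on simulated data. Data of the study from other assays were not analysed here.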

Additional observations from a re-analysis of the deposited data

How the results depend on the processing

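Of the 15 kept probes of the set, 11 were lower in shGR-19 by the raw readings. Leaving out each array in turn moved this number between 5 (without EV2) and 14 (without SH2), and it was 7 without SH1. Quantile normalization and the percentile over detected probes left it at 11, normexp and the GeneSpring values gave 12. By the GeneSpring values it was 11 or 12 with each column left out. Single probes changed sign in 13 of 60 raw fits with an array left out and in 2 of 60 GeneSpring fits.

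By the raw readings limma called 0 probes higher and 0 lower, against 19 and 16 at an unadjusted p below 0.01, and 2 and 4 by an unadjusted plain equal-variance test. By the GeneSpring values 457 were called higher and 585 lower, against 15 and 28 with all probes kept, 4 and 11 by the adjusted plain equal-variance test, and 0 and 0 with each column left out, where 9066 to 9824 had an unadjusted p below 0.05. Of the other matrix genes 4 were called higher and 8 lower, against 0 and 0 with all probes kept, with each column left out or from raw readings.

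Both lines have replicates 1 and 2, and no label says that a number marks a shared culture or day. Deviations from the line mean correlated between arrays of the same number at 0.652 (raw) and 0.108 (GeneSpring), across probes, which are not independent replicates. With a replicate block limma called 0 probes higher and 0 lower from either source, and 0 of the other matrix genes, while 598 (raw) and 12085 (GeneSpring) had an unadjusted p below 0.05. The cause of these changes was not tested.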
